A study of Homo sapiens with 24 samples.

Results

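The 47 genes described here encode enzymes of triglyceride and phospholipid synthesis, lipid droplet coat proteins, and lipases with their regulators. They were listed by symbol for what their products do. No measured value entered that rule, but the list was chosen with earlier results of these data known. All 47 were matched to Ensembl identifiers among the 58735 in the count files, and 46 had at least 1 count. RNA came from HT-144, a human line grown from a melanoma metastasis, 3 days after reverse transfection with Lipofectamine RNAiMAX in RPMI-1640 with added insulin, transferrin, selenium, glutamine and antibiotics. There were 6 groups. SREBF1, the gene of the transcription factor SREBP-1, was targeted with a pool of siRNAs at 50 nM (siSREBF1) or with 1 of the antisense oligonucleotides (ASOs) ASO-SREBF1-S1 and ASO-SREBF1-S4, each at 5 nM. The controls were a non-targeting siRNA at 50 nM (siNegative), a non-targeting ASO at 5 nM (ASO-Neg) and a mock transfection. Each group was 1 strand-specific poly(A) library, read on 4 lanes that the series text describes as technical replicates, so the lanes were summed. The study asked what the SREBF1 ASO does to the transcriptome of these cells. A knockdown was repeated only by using another reagent, and every p-value below measures the spread between single libraries of different reagents.

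Glycerol 3-phosphate is acylated to lysophosphatidic acid and then to phosphatidic acid, from which the lipins make diacylglycerol. Diacylglycerol is acylated to triglyceride, which is stored in droplets, or combined with activated choline or ethanolamine to give the main membrane phospholipids, while phosphatidic acid activated with CTP feeds cardiolipin. SREBP-1 is best known as an activator of fatty acid synthesis. LPIN1, GPAM, PNPLA3 and AGPAT2 are among the genes of this branch described as SREBP targets, mostly from work in liver and fat cells.

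Promoter windows from RefSeq (build GRCh38.p14), taken as the 250 bases before each annotated start, were on hand for 34 of the 47 genes, in 56 windows. Letters of a sterol regulatory element (TCACNCCAC, either strand), the kind of site SREBPs bind, stood in 3.57% of the genes' windows (CIDEC and PNPLA2) and in 0.883% of all 35116 windows. The E-box CACGTG stood in 7.14% of the genes' windows (LPIN2, PEMT, PLIN2 and PTDSS2), against 6.34% of all, and CCAAT, either strand, in 25% against 32%. None of the 3 LPIN1 windows and not the GPAM window held TCACNCCAC or CACGTG. Of the 7 genes lower in every SREBF1-targeting library, LPIN1, PCYT2, LPCAT1, PEMT and AGPAT4 had a window. PCYT2 and AGPAT4 held CCAAT, PEMT held CACGTG, and LPIN1 and LPCAT1 held none of the 3 motifs. The PCYT2 window is shown for a repeat around its CCAAT letters and the PEMT window for its E-box. Capitals mark CCAAT on the reverse strand (ATTGG) in PCYT2 and CACGTG in PEMT. Both genes lie on the minus strand of chromosome 17, and each window is written 5′ to 3′ along the gene.
PCYT2, chr17:81911400-81911649: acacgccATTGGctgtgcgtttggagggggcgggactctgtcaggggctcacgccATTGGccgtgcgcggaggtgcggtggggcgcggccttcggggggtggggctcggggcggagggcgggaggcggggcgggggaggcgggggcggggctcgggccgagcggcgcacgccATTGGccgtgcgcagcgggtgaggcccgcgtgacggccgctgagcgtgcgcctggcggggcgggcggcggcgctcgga
PEMT, chr17:17577497-17577746: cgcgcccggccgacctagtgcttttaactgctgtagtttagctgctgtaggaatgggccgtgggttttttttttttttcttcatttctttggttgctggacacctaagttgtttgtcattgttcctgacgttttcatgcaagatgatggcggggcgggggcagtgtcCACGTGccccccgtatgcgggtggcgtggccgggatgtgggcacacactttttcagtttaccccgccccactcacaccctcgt
The 3 ATTGG matches of PCYT2 began 243, 195 and 78 bases before the start. All 3 lay inside a repeat that reads CACGCCATTGGCNGTGCG, in which 17 of 18 positions were the same in the 3 copies. This PCYT2 window was the 1 among 35116 that held those letters on either strand. The letters were read from this same window and are 18 long, so a match elsewhere was unlikely from the outset. PEMT has 3 windows, and the one shown was picked because it held the E-box. It lies inside the annotated gene, which runs from 17505563 to 17591708, so the start it precedes is an internal one. The E-box began 83 bases before that start. These matches describe letters and do not show that a factor binds there.

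The libraries held between 12916478 (mock) and 47900277 (ASO-SREBF1-S1) gene counts on the strand of the transcript, and 3 counts, taken as the floor, corresponded to 0.0626 to 0.232 CPM. CPM are counts relative to the library's total, and all below were scaled by edgeR's TMM factors. SREBF1 had 55.0, 77.1 and 70.4 CPM with siSREBF1, ASO-SREBF1-S1 and ASO-SREBF1-S4, against 249.7, 217.4 and 231.9 CPM with siNegative, ASO-Neg and mock (log2 ratio -1.78 ± 0.12 SE, edgeR adjusted p = 0.00164). SREBF2, its paralog, had 504.4, 509.1 and 509.2 CPM in the targeting libraries and 567.7, 591.7 and 601.2 CPM in the controls (log2 ratio -0.21, edgeR adjusted p = 0.322). All 8 melanocyte markers were present, summing to 4131 to 5596 CPM in targeting libraries and 4802 to 6291 CPM in controls. Of 6 adipocyte markers, ADIPOQ, LEP and CIDEA were at 0 in every library and LPL alone averaged over 1 CPM. All 6 fibroblast markers averaged over 1 CPM, and their sum was 66.3 to 79.5 CPM in targeting libraries and 88.7 to 97.8 CPM in controls, without overlap. Of 5 immune markers none averaged over 1 CPM (sums of 0.747 to 2.34 CPM and 0.628 to 1 CPM), and of 4 hepatocyte markers only SERPINA1 did (sums of 0.788 to 4.25 CPM and 0.557 to 1.12 CPM).

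Levels of different genes were compared per kilobase of exon not shared with another gene, averaged over the 6 libraries. For this length the exons of all annotated transcripts of a gene were merged, which need not match the RNA present in these cells. AGPAT1, the acyltransferase that makes phosphatidic acid, led with 42.9 CPM per kilobase, and its range over libraries did not overlap that of PLIN2, the droplet coat protein perilipin 2, at 31.5. Before division by length AGPAT1 averaged 153.7 CPM and PLIN2 157.8 CPM, so their order rests on the lengths used. The ranges over libraries do not cover an error in length. PLIN3, a coat protein of nascent droplets, followed at 28.0 and PNPLA3, a droplet lipase, at 25.0. LPIN1 came next at 21.3 CPM per kilobase, and then PCYT2 at 16.1. From PLIN2 down to PCYT2 each gene's range overlapped that of the next. At the low end, 5 genes fell below the count filter and were left out of the reported tests. MOGAT2, an intestinal monoacylglycerol acyltransferase, had 0 counts in all 6 libraries. G0S2, an inhibitor of adipose triglyceride lipase, had 1 count in siNegative and none elsewhere. LIPE, hormone-sensitive lipase, had 0 to 2 counts per library, and CIDEC, which fuses droplets in fat cells, had 0 to 4. CHKB, a choline kinase, had 2 to 16 counts, but only 27.5% of its exon bases were free of an overlapping gene on its strand, so its level is uncertain. The same holds to a lesser degree for the seipin gene BSCL2, with 78.2% of its exon bases free.

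**Figure D1:**
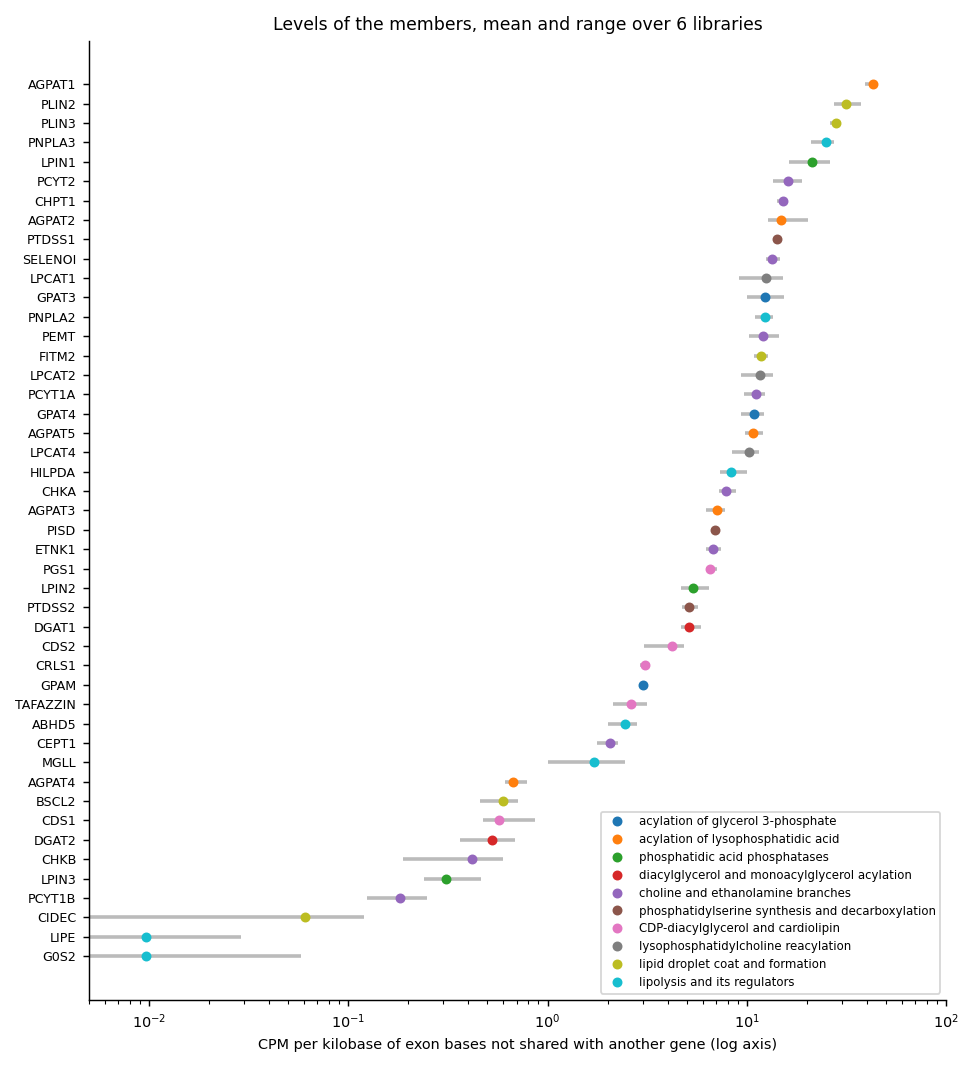
Level of each gene with a count, as the mean (point) and range (bar) over the 6 libraries in CPM per kilobase of unshared exon on a log axis, coloured by role; a bar that reaches the left edge includes a library at 0. AGPAT1 stands at the top with 42.9 and 3 of the untested genes, CIDEC, LIPE and G0S2, at the bottom.

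None of the 42 genes tested passed an adjusted p of 0.05 in edgeR's quasi-likelihood comparison of the 3 targeting with the 3 control libraries. Across all 15123 genes tested, 0.0595% were called. At an unadjusted p below 0.05 stood 10 of the 42 (23.8%, against 10.2% of all genes tested), of which 3 were higher (MGLL, GPAT3 and PLIN2) and 7 lower (LPIN1, PCYT2, TAFAZZIN, LPCAT1, PNPLA3, PEMT and LPCAT4). The log2 ratio was below 0 for 22 genes and above 0 for 20, with a median of -0.00, beside 0.01 over all genes tested, and a range of -0.54 (LPIN1) to 0.86 (MGLL). In 7 genes (16.7%) every targeting library lay below every control, which held for 8.52% of all genes tested. In 2 (4.76%), MGLL and GPAT3, every targeting library lay above, against 8.87% of all. With other tools, DESeq2's Wald test called 3 of the 42 (LPIN1, PCYT2 and MGLL), and 171 of all 15123 genes. Limma-voom called 0 of the 42, and 5 of all. Without the ASO-SREBF1-S1 library edgeR called LPIN1 alone among the 42, and 103 of all 15310 genes tested. In a bulk library, fewer cells that express a gene and less RNA of it per cell cannot be told apart.

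**Figure D2:**
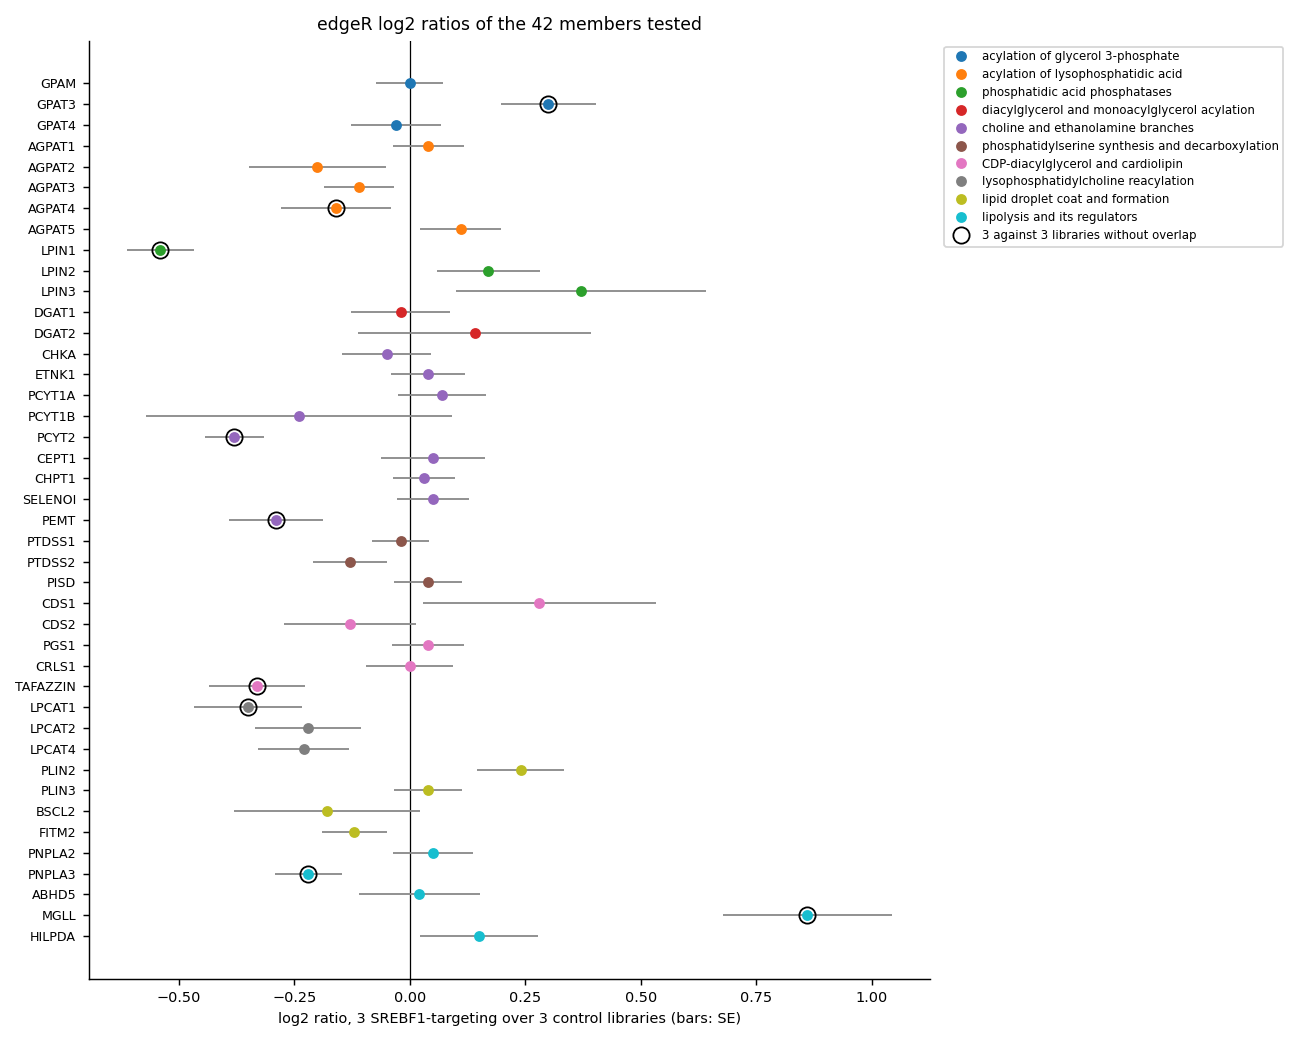
Log2 ratio of the 3 targeting over the 3 control libraries for the 42 genes tested, with standard errors, coloured by role; open circles mark genes whose libraries did not overlap. LPIN1 (-0.54) and PCYT2 (-0.38) lie farthest below 0 among the circled genes and MGLL (0.86) farthest above.

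The first step, acylation of glycerol 3-phosphate, is shared by GPAM on the mitochondrial outer membrane and by GPAT3 and GPAT4 in the endoplasmic reticulum. GPAM had 29.0, 30.4 and 29.5 CPM with siSREBF1, ASO-SREBF1-S1 and ASO-SREBF1-S4, and 29.4, 30.4 and 29.4 CPM with siNegative, ASO-Neg and mock. These values overlapped and GPAM had the smallest spread of any of the 37 genes averaging at least 5 CPM, with a coefficient of variation of 1.98% over the 6 libraries. Its log2 ratio was -0.00 ± 0.0723 (SE, edgeR adjusted p = 0.994). GPAT3 (chromosome 4, 83535914 to 83605875, plus strand) had 56.0, 46.0 and 46.5 CPM in the targeting libraries, against 40.3, 43.8 and 36.2 CPM in the controls. The siSREBF1 library was the high one, while the ASO libraries lay within 3 CPM of ASO-Neg. The log2 ratio of GPAT3 was 0.30 ± 0.103 (SE, edgeR adjusted p = 0.357), and within chemistries it was 0.47 for siSREBF1 over siNegative, with a 95% counting interval of 0.33 to 0.62, and 0.07 and 0.09 for ASO-SREBF1-S1 and ASO-SREBF1-S4 over ASO-Neg. GPAT3 made up 45.8% to 52.5% of the summed GPAT level per kilobase in targeting libraries and 42.2% to 46.2% in controls, ranges that overlapped. These shares depend on the exon lengths used, and in CPM GPAT4 was above GPAT3 in every library. GPAT4 averaged 86.1 ± 11.4 CPM in targeting libraries and 87.4 ± 2.73 CPM in controls (SD, n = 3 each), with ASO-SREBF1-S1 at 74.0 CPM and ASO-SREBF1-S4 at 96.6 CPM on either side of all 3 controls.

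Of the 5 acyltransferases that turn lysophosphatidic acid into phosphatidic acid, AGPAT1 supplied 54.3% to 58.9% of the summed level per kilobase in targeting libraries and 53.2% to 57.7% in controls. AGPAT2, mutated in a congenital lipodystrophy and described as an SREBP target, had 26.0, 26.8 and 23.4 CPM with the targeting reagents and 26.4, 24.5 and 37.1 CPM with siNegative, ASO-Neg and mock. Only the mock library was high, so AGPAT2 separated mock from both transfected controls and not targeting from control (log2 ratio -0.20 ± 0.148 SE, edgeR adjusted p = 0.688). AGPAT4 was scarce, with 8.96, 8.71 and 9.23 CPM in targeting libraries against 9.67, 9.30 and 11.2 CPM in controls. The groups just missed each other, 9.23 CPM against 9.30 CPM, and the log2 ratio of AGPAT4 was -0.16 ± 0.119 (SE, edgeR adjusted p = 0.676). AGPAT3 averaged 83.8 ± 6.21 and 90.4 ± 4.42 CPM, and the mitochondrial AGPAT5 69.6 ± 7.39 and 64.3 ± 2.06 CPM, in targeting and control libraries (SD, n = 3 each), both with overlap.

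LPIN1 stood nearest to the threshold among the genes tested. It encodes lipin 1, the phosphatidic acid phosphatase that also acts in the nucleus as a transcriptional coregulator, and it lies on chromosome 2 from 11677595 to 11827409 on the plus strand. It had 193.1, 214.2 and 209.6 CPM with siSREBF1, ASO-SREBF1-S1 and ASO-SREBF1-S4, against 303.3, 308.8 and 283.7 CPM with siNegative, ASO-Neg and mock. The highest targeting library was well under the lowest control. LPIN1 averaged 205.6 ± 11.1 CPM in targeting libraries and 298.6 ± 13.2 CPM in controls (SD, n = 3 each), a ratio of 0.689 (log2 -0.54 ± 0.072 SE, edgeR adjusted p = 0.0541). The adjusted p ran from 4.76e-07 to 0.477 over the alternative fits, while the log2 ratio stayed between -0.60 and -0.49. LPIN2 and LPIN3 encode the other lipins, and their log2 ratios were above 0. LPIN2 had 47.4, 35.9 and 43.8 CPM in targeting libraries and 37.0, 40.6 and 34.5 CPM in controls, with overlap (log2 ratio 0.17, edgeR adjusted p = 0.644). LPIN3 stayed under 3 CPM throughout (log2 ratio 0.37, edgeR adjusted p = 0.686). The summed lipin level per kilobase was 23.0, 23.2 and 24.1 in targeting libraries, against 30.8, 31.8 and 28.9 in controls, and the LPIN1 share of it 70.7% to 77.8% against 81.9% to 82.9%. Both measures separated the groups, but LPIN1 makes up most of the sum, so they largely restate its own values. The fibroblast marker sum separated the groups as well, and its part in these results was not tested.

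**Figure D3:**
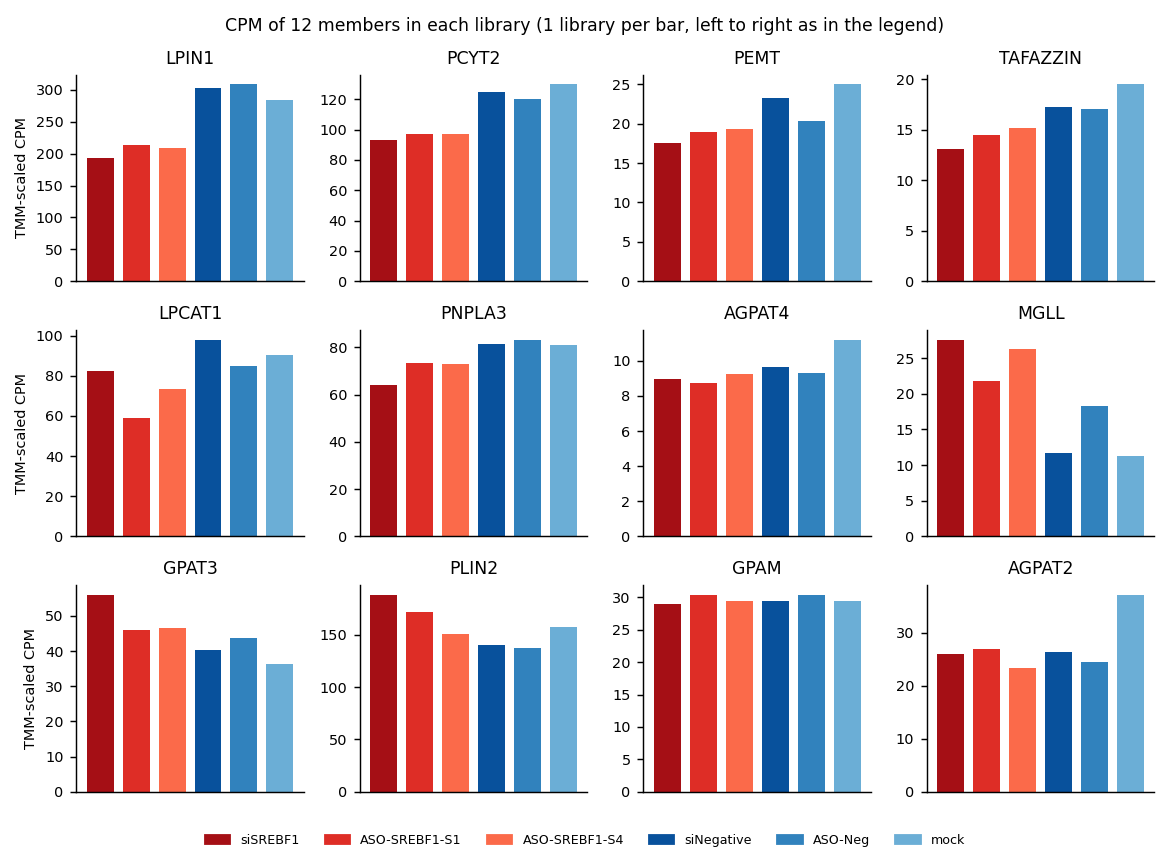
TMM-scaled CPM of 12 genes in each of the 6 libraries, 1 bar per library, targeting libraries in red shades left of controls in blue shades, each panel with its own axis from 0. LPIN1, PCYT2, PEMT, TAFAZZIN, LPCAT1, PNPLA3 and AGPAT4 are lower in all 3 targeting libraries, MGLL and GPAT3 higher, GPAM is level, and AGPAT2 is high in mock alone.

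The last step to triglyceride is carried by DGAT1 and DGAT2. DGAT1, which also esterifies retinol, supplied 88.5% to 93.1% of their summed level per kilobase in targeting libraries and 90.2% to 92.5% in controls. It averaged 18.6 ± 0.674 CPM in targeting libraries and 19.0 ± 2.34 CPM in controls (SD, n = 3 each; edgeR adjusted p = 0.960). DGAT2 had 5.08, 2.86 and 5.42 CPM in the targeting libraries and 4.20, 3.71 and 3.77 CPM in the controls, so its lowest and its highest values both came from ASO-treated cells.

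In the choline and ethanolamine branches, 2 of 9 tested genes, PCYT2 and PEMT, were lower in every targeting library (22.2%, against 8.52% of all genes tested). PCYT2, the enzyme that activates phosphoethanolamine with CTP and sets the pace of phosphatidylethanolamine synthesis (chromosome 17, 81900958 to 81911432, minus strand, with the repeat shown above next to its start), had 93.4, 97.4 and 96.9 CPM with siSREBF1, ASO-SREBF1-S1 and ASO-SREBF1-S4. With siNegative, ASO-Neg and mock it had 124.5, 119.9 and 129.8 CPM. Neither group spread by more than 10 CPM and the gap between them was wider. PCYT2 averaged 95.9 ± 2.19 CPM in targeting libraries and 124.8 ± 4.94 CPM in controls (SD, n = 3 each), a ratio of 0.769 (log2 -0.38 ± 0.0642 SE, edgeR adjusted p = 0.0971). PCYT1A and PCYT1B do the same for phosphocholine. PCYT1A had 74.0, 91.4 and 94.6 CPM in targeting libraries and 81.2, 86.4 and 79.8 CPM in controls, with siSREBF1 lowest and both ASOs highest of all 6. PCYT1B stayed under 2 CPM.

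PEMT methylates phosphatidylethanolamine to phosphatidylcholine, a route best known in liver. It had 17.6, 19.0 and 19.3 CPM in targeting libraries against 23.3, 20.4 and 25.0 CPM in controls, with ASO-Neg close to the ASO libraries (log2 ratio -0.29 ± 0.101 SE, edgeR adjusted p = 0.358). The other genes of these branches overlapped between groups, with log2 ratios of -0.05 for the choline kinase gene CHKA, 0.04 for the ethanolamine kinase gene ETNK1, 0.05 for CEPT1, which joins either head group to diacylglycerol, 0.03 for CHPT1, its choline-specific relative, and 0.05 for SELENOI, its ethanolamine-specific relative. SELENOI averaged 115.8 ± 8.08 CPM in targeting libraries and 111.8 ± 6.35 CPM in controls (SD, n = 3 each). PTDSS1 and PTDSS2, which exchange head groups to make phosphatidylserine, and PISD, which decarboxylates it in mitochondria, had log2 ratios of -0.02, -0.13 and 0.04. PTDSS1 was nearly flat, with 86.9, 86.0 and 84.1 CPM in targeting libraries and 85.3, 85.8 and 89.9 CPM in controls.

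Among the genes that lead from phosphatidic acid to cardiolipin, the lipid of the inner mitochondrial membrane, only TAFAZZIN separated the groups. That is 1 of 5 genes tested (20%), against 8.52% of all genes tested that were lower in every targeting library. TAFAZZIN, mutated in Barth syndrome, remodels the acyl chains of cardiolipin. It had 13.1, 14.5 and 15.2 CPM with the targeting reagents, against 17.3, 17.1 and 19.5 CPM with siNegative, ASO-Neg and mock (log2 ratio -0.33 ± 0.104 SE, edgeR adjusted p = 0.330). Cardiolipin synthase itself, CRLS1, averaged 16.5 ± 0.677 CPM in targeting libraries and 16.5 ± 0.929 CPM in controls, and PGS1, which makes its phosphatidylglycerol precursor, 33.7 ± 1.91 and 32.7 ± 1.19 CPM (SD, n = 3 each). CDS2, the main CDP-diacylglycerol synthase gene here, differed between reagents, with 56.9, 49.2 and 36.0 CPM in targeting libraries and 48.9, 53.2 and 53.6 CPM in controls. The siSREBF1 library was the highest of all 6 and ASO-SREBF1-S4 the lowest. CDS1 was at 3.73 CPM with siSREBF1 and between 2.03 and 2.52 CPM in the other libraries.

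Of the enzymes that reacylate lysophosphatidylcholine, LPCAT1, LPCAT2 and LPCAT4 are among the 47 genes, and their log2 ratios were below 0; LPCAT3 is given with the further pathway genes below. LPCAT1, on chromosome 5 from 1456480 to 1523962 on the minus strand, had 82.2, 59.1 and 73.2 CPM in targeting libraries against 98.0, 84.8 and 90.1 CPM in controls. The gap between the groups was small beside the spread among the reagents, and ASO-SREBF1-S1 was the lowest (log2 ratio -0.35 ± 0.117 SE, edgeR adjusted p = 0.344). LPCAT4 had 39.6, 42.6 and 51.1 CPM in targeting libraries and 54.3, 50.7 and 51.0 CPM in controls, with ASO-SREBF1-S4 among the controls (log2 ratio -0.23, edgeR adjusted p = 0.473). LPCAT2, which also makes platelet-activating factor, had 74.2, 88.7 and 66.8 CPM in targeting libraries and 79.6, 91.4 and 97.4 CPM in controls (log2 ratio -0.22, edgeR adjusted p = 0.565). Each of the 3 was lowest with a different reagent, and their summed level per kilobase, LPCAT3 left out, was 31.5, 30.5 and 31.5 in targeting libraries, against 37.8, 36.6 and 38.3 in controls, without overlap. Of the 3 genes only LPCAT1 separated the groups by itself (33.3%, against 8.52% of all genes tested). How often sums of other genes separate the groups was not examined, so the sum does not show a joint fall of the 3.

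**Figure D4:**
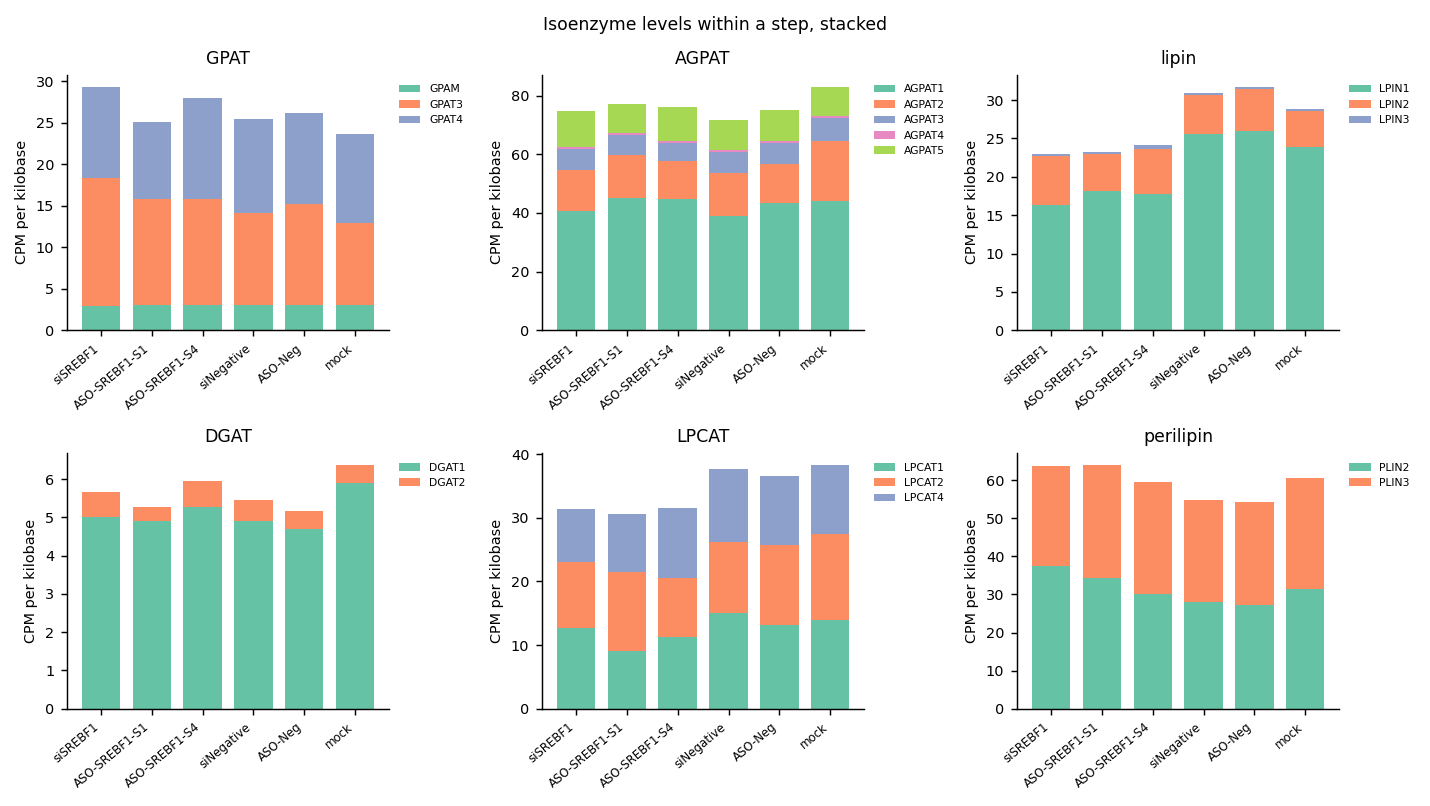
Stacked levels of isoenzymes in each library, in CPM per kilobase of unshared exon, targeting libraries left of controls. The lipin total is 23.0 to 24.1 in targeting libraries and 28.9 to 31.8 in controls and the total of LPCAT1, LPCAT2 and LPCAT4 30.5 to 31.5 and 36.6 to 38.3, whereas the GPAT, AGPAT, DGAT and perilipin totals overlap between groups.

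Of the droplet coat and formation genes, PLIN2, whose protein is stabilised by stored lipid, had 188.3, 172.3 and 151.3 CPM with siSREBF1, ASO-SREBF1-S1 and ASO-SREBF1-S4, and 140.7, 137.0 and 157.2 CPM with siNegative, ASO-Neg and mock. The ASO-SREBF1-S4 library lay below mock, so the groups overlapped (log2 ratio 0.24 ± 0.0937 SE, edgeR adjusted p = 0.429). PLIN2 and LPCAT4 were singled out after their values were seen, for unadjusted p-values under 0.05. PLIN3 averaged 77.7 ± 5.10 CPM in targeting libraries and 75.8 ± 3.41 CPM in controls (SD, n = 3 each), so that PLIN2 made up 58.9%, 53.8% and 50.8% of the summed perilipin level per kilobase in targeting libraries and 51.1%, 50.2% and 51.9% in controls. FITM2, needed for droplets to bud from the endoplasmic reticulum, averaged 52.4 ± 2.73 CPM in targeting libraries and 56.8 ± 2.04 CPM in controls (SD, n = 3 each; log2 ratio -0.12, edgeR adjusted p = 0.613), and BSCL2 stayed under 5 CPM.

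Lipolysis genes gave the largest positive ratio. MGLL, monoacylglycerol lipase, which frees the last fatty acid from glycerol and also degrades an endocannabinoid (chromosome 3, 127689062 to 128052190, minus strand), had 27.6, 21.8 and 26.3 CPM with siSREBF1, ASO-SREBF1-S1 and ASO-SREBF1-S4. In the controls it had 11.7 CPM with siNegative, 18.3 CPM with ASO-Neg and 11.3 CPM with mock. The non-targeting ASO thus stood between the other controls and the targeting libraries. MGLL averaged 25.2 ± 3.06 CPM in targeting libraries and 13.8 ± 3.90 CPM in controls (SD, n = 3 each), a ratio of 1.82 (log2 0.86 ± 0.183 SE, edgeR adjusted p = 0.184). PNPLA3, a lipase and transacylase of droplets and a known SREBP target (chromosome 22, 43923792 to 43964488, plus strand), had 64.2, 73.2 and 72.9 CPM in targeting libraries against 81.3, 83.2 and 81.1 CPM in controls. The controls agreed within 3 CPM and siSREBF1 was the lowest library (log2 ratio -0.22 ± 0.0724 SE, edgeR adjusted p = 0.339). PNPLA2, adipose triglyceride lipase, averaged 48.2 ± 3.67 CPM in targeting libraries and 46.4 ± 3.52 CPM in controls (SD, n = 3 each). Its coactivator gene ABHD5 had 15.1, 21.2 and 19.4 CPM in targeting libraries and 19.6, 18.5 and 17.2 CPM in controls, with siSREBF1 lowest and ASO-SREBF1-S1 highest. HILPDA, an inhibitor of that lipase induced by hypoxia, had 17.9, 13.2 and 16.4 CPM in targeting libraries and 13.5, 14.7 and 14.1 CPM in controls.

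Within each chemistry there was 1 library a side, so the matched comparisons have no replicate check and are given as sizes with 95% counting intervals, which cover counting error only. A gene counted as higher or lower if it differed at least 1.5-fold, its interval did not span 0 and 1 of the libraries had at least 5 CPM. With siSREBF1 over siNegative, 1 of 38 genes was higher (1.79% of all 11260 genes) and 1 lower (1.65% of all). The higher gene was MGLL, with a log2 ratio of 1.23 (interval 1.00 to 1.48), and the lower one LPIN1, at -0.65 (-0.72 to -0.58). With ASO-SREBF1-S1 over ASO-Neg, 0 of 37 genes were higher (1.08% of all 11117) and 0 lower (1.75%). With ASO-SREBF1-S4 over ASO-Neg, 0 of 38 were higher (3.25% of all 11253) and 0 lower (1.48%). LPIN1 fell just short of the size limit of 0.58 on the log2 scale, at -0.53 (-0.58 to -0.48) with ASO-SREBF1-S1 and -0.56 (-0.62 to -0.50) with ASO-SREBF1-S4. Both ASO comparisons use the same ASO-Neg library, so their values are not independent. For PCYT2 the log2 ratios were -0.42 (-0.52 to -0.32) with siSREBF1, -0.30 (-0.38 to -0.22) with ASO-SREBF1-S1 and -0.31 (-0.40 to -0.21) with ASO-SREBF1-S4. For MGLL the ASO values were 0.25 (0.07 to 0.44) with ASO-SREBF1-S1 and 0.52 (0.31 to 0.74) with ASO-SREBF1-S4.

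The control reagents were set against mock in the same way. With siNegative over mock, 0 of 37 genes were higher (0.608% of all 11188) and 0 lower (0.25%). With ASO-Neg over mock, 1 of 37 was higher (0.197% of all 11152) and 1 lower (0.852%). The higher gene was again MGLL, with a log2 ratio of 0.69, and the lower one AGPAT2, at -0.60. This MGLL ratio of ASO-Neg over mock exceeded those of ASO-SREBF1-S1 and ASO-SREBF1-S4 over ASO-Neg. LPIN1 differed from mock by 0.10 with siNegative and 0.12 with ASO-Neg, and PCYT2 by -0.06 and -0.11.

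**Figure D5:**
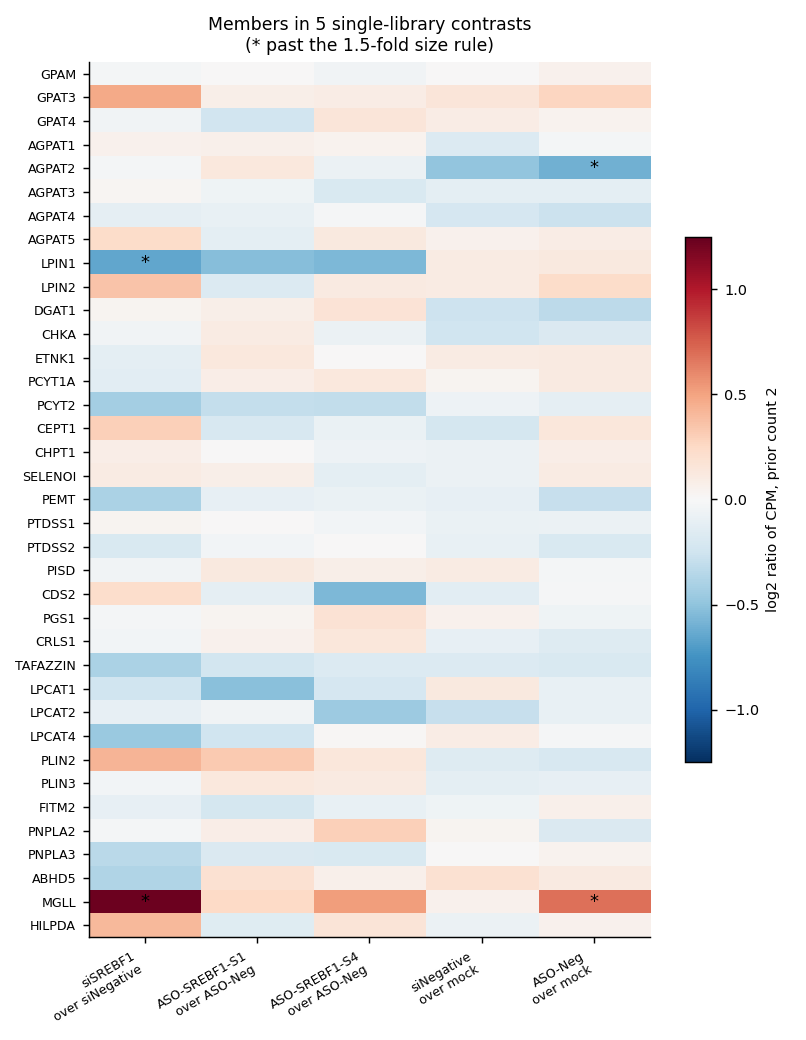
Log2 ratio of CPM (prior count of 2) for the 37 genes averaging at least 5 CPM, in the 3 matched SREBF1 comparisons and in each non-targeting reagent over mock; asterisks mark ratios past the 1.5-fold rule. LPIN1 is blue in the 3 SREBF1 columns and near 0 in the control columns, whereas MGLL is red in the SREBF1 columns and in ASO-Neg over mock.

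A further edgeR fit separated the chemistries. For the ASO pair over all 3 controls, 0 of the 42 genes were called (0.043% of all 16297), with 8 at an unadjusted p below 0.05 (19.0%, against 11.2% of all genes tested). LPIN1 had a log2 ratio of -0.50 ± 0.0763 in that comparison (SE, edgeR adjusted p = 0.0617), PCYT2 -0.36 ± 0.0723 (adjusted p = 0.129) and LPCAT1 -0.47 ± 0.107 (adjusted p = 0.173). Between siSREBF1, a single library assumed to vary like the others, and the ASO pair, 0 of the 42 genes were called (0.147% of all called), with 4 at an unadjusted p below 0.05 (9.52%, against 8.71% of all). These were PCYT1A and ABHD5, lower with siSREBF1, and CDS1 and CDS2, higher with siSREBF1. For LPIN1 the difference was -0.14 ± 0.102 (SE, edgeR adjusted p = 0.785) and for PCYT2 -0.06 ± 0.0978 (adjusted p = 0.932), so a difference between the chemistries was not detectable for either, which does not show that they act alike. Between the ASOs there was 1 library a side. For the 3 genes of smallest adjusted p in the 3 against 3 comparison, ASO-SREBF1-S1 over ASO-SREBF1-S4 gave log2 ratios of 0.03 for LPIN1 (counting interval -0.02 to 0.09), 0.01 for PCYT2 (-0.08 to 0.09) and -0.27 for MGLL (-0.43 to -0.11). For LPCAT1, named above for the ASO pair, the ratio was -0.31 (-0.41 to -0.21).

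Another 82 genes of the same pathways, among them the phospholipases, diacylglycerol kinases and further acyltransferases, were examined in the same way. Of the 72 tested, 0 passed the adjusted threshold in edgeR's 3 against 3 comparison, beside 0.0595% of all genes. At an unadjusted p below 0.05 stood 2 higher and 6 lower (11.1%, against 10.2% of all genes tested). In 13 (18.1%, against 8.52% of all) every targeting library lay below every control, and in 3 (4.17%, against 8.87%) above. Their median log2 ratio was -0.03. By smallest p came PLA2G15, the lysosomal phospholipase A2, with 28.4, 32.1 and 33.5 CPM in targeting libraries against 43.9, 38.7 and 41.0 CPM in controls (log2 ratio -0.39, edgeR adjusted p = 0.204). ACSL3, the acyl-CoA synthetase that feeds growing droplets, followed with 883.2, 893.5 and 990.7 CPM against 1151, 1170 and 1142 CPM (log2 ratio -0.32, edgeR adjusted p = 0.222). Next were GDPD3, a lysophospholipase D (log2 ratio -0.67, at 2.26 to 2.39 CPM in targeting libraries and 3.18 to 4.15 CPM in controls), PLA2G4C, a cytosolic phospholipase A2 (0.51), LPCAT3, which puts polyunsaturated chains into phospholipids (-0.20), and DGKQ, a diacylglycerol kinase (0.24), with edgeR adjusted p-values between 0.263 and 0.410. In each of these 6 genes the 3 targeting libraries did not overlap the 3 controls. The 6 were picked by smallest p in that same comparison, so this is no separate support.

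Over the 6 libraries, the 37 genes that averaged at least 5 CPM had a median coefficient of variation of 8.61%, beside 8.68% for the 11053 genes tested at that level, and they ran from 1.98% (GPAM) to 36% (MGLL), with LPIN1 at 20.7% and PCYT2 at 14.7%.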

How the data were processed

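Per the submitters' processing notes, reads (paired, 75 bases) were checked with FastQC and aligned with STAR 2.6.1a to GRCh38; the annotation is not given in the sources used here. The deposited files hold raw read counts per gene, unstranded and for each strand. The reverse-strand counts were used: the forward column held 6.47% to 7.79% of the counts of both strands, and read pairs of overlapping genes (4.14% to 4.28%) and the other rows without a gene were left out. The 4 lanes of a library differed by little more than counting noise (chi-square over degrees of freedom 1.018 to 1.047, against 2.027 to 8.69 between libraries) and were summed, giving 1 library per group. Symbols, exons and coordinates came from GENCODE 44.

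Genes past edgeR's filterByExpr were tested with edgeR 4.0.16 (R 4.3.3; TMM, quasi-likelihood F test, Benjamini-Hochberg over all genes tested). Single-library ratios used a prior count of 2 and exact binomial 95% intervals. DESeq2 1.42.0 and limma 3.58.1 were alternatives. Scripts were tested on simulated data.

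Members, lists and tests were chosen with earlier results of these data known. By rule, values in all libraries were given for genes past the 1.5-fold rule in a matched SREBF1 comparison, for those whose groups did not overlap, and for GPAM, LPIN1, PNPLA3 and AGPAT2. They were also given for LPIN2, DGAT2, PCYT1A, PTDSS1, CDS2, LPCAT2, LPCAT4, PLIN2, ABHD5 and HILPDA, which this rule did not select. Of the further pathway genes, the 6 of smallest p were named.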

Additional observations from a re-analysis of the deposited data

Results flagged for a closer look

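In 3 of 37 genes (8.11%, against 2.89% of all 10985 genes tested) the siRNA and both ASOs had log2 ratios of opposite sign against their own controls, with an unadjusted p below 0.05 for the difference between siSREBF1 and the ASO pair. None passed edgeR's adjusted threshold, and for each gene the 95% counting interval of 1 ASO ratio reached 0. At an unadjusted p below 0.05 alone, siSREBF1 differed from the ASO pair in 9.52% of the genes tested, close to the 8.71% of all genes. PCYT1A, of phosphatidylcholine synthesis, had log2 ratios of -0.13 for siSREBF1 over siNegative and 0.08 (-0.00 to 0.17) and 0.13 (0.03 to 0.24) for ASO-SREBF1-S1 and ASO-SREBF1-S4 over ASO-Neg, and siSREBF1 over the ASO pair was -0.33 ± 0.101 (SE, edgeR adjusted p = 0.361). ABHD5, the coactivator of adipose triglyceride lipase, had -0.38, 0.19 (0.01 to 0.38) and 0.06 (-0.17 to 0.29) in the same order, with a difference of -0.44 ± 0.150 (SE, edgeR adjusted p = 0.428). CDS2, a CDP-diacylglycerol synthase gene, had 0.22, -0.11 (-0.22 to 0.00) and -0.56 (-0.71 to -0.41), with a difference of 0.40 ± 0.170 (SE, edgeR adjusted p = 0.552), and its ASO-SREBF1-S4 value was the one farthest from 0. The chemistries also differed in dose, 50 nM against 5 nM, which cannot be told apart from chemistry here.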

How the results depend on the processing

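Of the alternative values for the counts of genes, 70 stayed within 1.5 times the reported count and 18 did not. The count of genes called in the 3 against 3 comparison, 0 as reported (9 of all 15123), was 3 with DESeq2's Wald test (171 of all 15123). With no filter it was 4 (LPIN1, PCYT2, LPCAT1 and MGLL, beside 509 of all 31378). With unstranded counts it was 1 (LPIN1, beside 10 of all 15201). It ranged from 0 to 1 when a library or a lane was left out. LPIN1 was called without ASO-SREBF1-S1 (beside 103 of all 15310), without lane 1 (11 of all 14481) and without lane 3 (12 of all 14479). The count was 0 with limma-voom (5 of all 15123). It was also 0 with chemistry as a term, a fit that left out mock (0 of all 15477). In the fit that separated the chemistries, calls were added over its 2 comparisons, so a gene could count more than once. They came to 0 as reported and to 4 with no filter. The share of all genes called with no filter is not given for that fit, so nothing is read from this count. Genes lower in every targeting library numbered 5 to 12 with a library or lane left out (12 without ASO-SREBF1-S4). Genes higher in every one numbered 2 to 7 (7 without ASO-SREBF1-S1, 6 without siSREBF1 and 4 without mock). With a library left out, fewer libraries had to separate, so any gene could pass more easily. The share of all genes that passed is not given for those settings, so a larger count does not show a clearer separation of these genes. At a 2-fold limit, 1 gene passed for siSREBF1 over siNegative and 0 for ASO-Neg over mock. With a lane left out, 1 to 2 passed for ASO-SREBF1-S4 over ASO-Neg and 1 to 2 for ASO-Neg over mock. The share of all genes that passed is not given for these settings either, so these counts cannot be set against it. The cause of these shifts was not tested. Some settings also bring smaller libraries or gene lists of another length. Of 187 alternative values for the log2 ratios of named genes in the 3 against 3 comparison, 5 changed sign. The AGPAT2 log2 ratio did so with chemistry as a term and mock left out (0.006), and leaving out mock alone gave -0.008. That of GPAM did so without ASO-Neg (0.010), without siSREBF1 (0.013), with limma-voom (0.000) and without lane 3 (0.039, with -0.028 to 0.039 over the lanes). In the matched comparisons, which have no test, 15 of 231 alternative ratios changed sign, all from reported sizes of at most 0.099 (AGPAT2, AGPAT4, GPAM, GPAT3 and PEMT), as did 8 of 52 medians, from at most 0.03. No paired analysis was possible because the replicate numbers are lanes of 1 library per group, summed here. With 1 library per reagent, 3 reagents of 2 chemistries at different doses and 4 residual degrees of freedom, genes at a few CPM carry the widest errors.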
